A study of Homo sapiens with 16 samples.

Results

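The CCT chaperonin and the mitochondrial HSP60 machine are represented here by 10 listed genes: TCP1, CCT2, CCT3, CCT4, CCT5, CCT6A, CCT7 and CCT8 for the subunits of CCT, HSPD1 for HSP60, and HSPE1 for its co-chaperonin HSP10. A probe set, the group of short oligonucleotides that reads out one transcript on the array, was taken as a member when the platform's annotation gave it 1 gene symbol and that symbol was in the list. The rule found 13 probe sets of 9 genes among the 22277 probe sets on the array. TCP1 has none, because its 3 probe sets also carry the small nucleolar RNA SNORA29, so no value is given for it. CCT2, CCT6A, CCT8 and HSPD1 have 2 probe sets each and the other 5 genes have 1. Of the 13 probe sets, 12 passed the filter on low values, which required 2 or more arrays at a log2 value of 4 or above. The exception was 210436_at for CCT8, which lay between 2.27 and 2.37 on all 16 arrays, while 200873_s_at for the same gene lay above 12.2 throughout. The 9 genes below are each represented by the probe set with the highest mean, unless another is named.

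The study measured total RNA of A673, a Ewing sarcoma line driven by the fusion oncoprotein EWS-FLI1, on 16 Affymetrix arrays. All samples were the single clone Asp14, which carries a doxycycline-inducible hairpin against EWS-FLI1 and a TR expression vector and was grown in Zeocin and Blasticidin to hold both. The 0 h group (4 arrays) was taken when doxycycline was added and is the only untreated group. All treated groups received doxycycline at 1 µg/ml. They hold 3 arrays each for 18 h and 36 h and 2 arrays each for 53 h, 72 h and 96 h. No untreated culture at a later time and no doxycycline-treated culture without the hairpin was analysed here, so the effects of losing the fusion, of culture time and of the drug cannot be told apart. The labels do not say that replicates came from separate cultures, and p-values measure the spread between these arrays only, which may be technical.

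FLI1, whose transcript end the fusion carries, stood at a log2 value of 10.08 ± 0.07 (SD, n = 4) at 0 h, and no array after doxycycline exceeded 7.165. Of 8 Ewing sarcoma markers, 7 had a probe set with 1 symbol and all 7 were above the log2 floor of 4 at 0 h. Their mean per array ranged from 10.72 to 11.10 at 0 h and from 7.60 to 7.77 at 72 h. Called lower were 6 of 7 at 72 h and 7 of 7 at 96 h, beside 39.2% and 35.7% of all genes tested. None of the 9 measured markers of blood, epithelium and endothelium reached 4 on any array. The 4 markers of fibroblasts and mesenchyme were all detected, and their mean per array ranged from 8.90 to 9.49 at 0 h and from 10.94 to 11.20 at 96 h. COL1A1, COL3A1 and PDGFRB rose, 3 of 4 at 72 h and at 96 h, beside 29.3% and 25.1% of all genes tested. The fourth, THY1, was not called at either time, and its log2 change at 72 h was -0.41. The part of either marker list in the chaperonin results was not tested, and fewer cells of a kind and less RNA per cell cannot be told apart in bulk RNA. The 3-prime less 5-prime signal of ACTB, a measure of RNA integrity and labelling, was 1.47 to 2.06 at 0 h, 2.09 to 2.45 at 36 h and 1.61 to 1.70 at 72 h.

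Chaperonins are ring-shaped machines that enclose an unfolded protein and release it folded at the cost of ATP. CCT, also called TRiC, works in the cytosol, receives clients from the prefoldin complex and the HSP70 system, and is best known for folding actin and tubulin. HSP60 works in the mitochondrial matrix with HSP10 as the lid of its cavity. Both machines are abundant in growing cells, and the HSP60 and HSP10 genes are known to lie head to head and to share a bidirectional promoter.

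That arrangement is shown by the windows from 250 bases before to 50 bases after the annotated start sites in RefSeq on GRCh38.p14, which held 8 of the 9 measured genes; CCT6A was not among them. They are printed because the 2 genes face each other across the same stretch, so that their changes can be read side by side. Each is given from 5′ to 3′ on the gene's own strand. An E-box (CACGTG) or a match to a short heat shock element pattern (GAANNTTC or TTCNNGAA) is in capitals.
HSPE1, plus strand, chr2:197500129-197500428: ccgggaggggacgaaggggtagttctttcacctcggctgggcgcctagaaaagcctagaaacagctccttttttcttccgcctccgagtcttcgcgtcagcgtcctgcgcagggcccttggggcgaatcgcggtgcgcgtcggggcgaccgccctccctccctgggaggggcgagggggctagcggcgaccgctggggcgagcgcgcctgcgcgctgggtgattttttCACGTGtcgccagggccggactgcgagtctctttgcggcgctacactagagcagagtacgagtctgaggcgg
HSPD1, minus strand, chr2:197500225-197500524: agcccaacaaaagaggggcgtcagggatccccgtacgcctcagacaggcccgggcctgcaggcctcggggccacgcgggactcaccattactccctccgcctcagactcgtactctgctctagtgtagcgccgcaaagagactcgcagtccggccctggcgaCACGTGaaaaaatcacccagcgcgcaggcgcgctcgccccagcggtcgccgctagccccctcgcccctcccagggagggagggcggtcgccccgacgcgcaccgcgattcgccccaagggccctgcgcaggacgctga
HSPD1, second annotated start, minus strand, chr2:197499791-197500090: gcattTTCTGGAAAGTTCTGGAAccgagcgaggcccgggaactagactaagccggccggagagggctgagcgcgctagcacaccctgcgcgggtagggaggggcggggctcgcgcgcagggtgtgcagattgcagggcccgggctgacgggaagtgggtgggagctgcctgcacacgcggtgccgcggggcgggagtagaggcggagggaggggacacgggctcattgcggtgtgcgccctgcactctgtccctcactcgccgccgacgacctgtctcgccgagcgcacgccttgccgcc
The HSPE1 start site lies 105 bases from the first HSPD1 start site and 539 bases from the second, and the first pair of windows overlaps by 204 bases. The E-box, the core letters bound by MYC-family factors among others, is the same 6 bases in both genes, at -22 from the HSPE1 start and at -88 from the first HSPD1 start. In the second HSPD1 window, 3 overlapping matches to the heat shock patterns begin at positions -245, -240 and -235 from the start. They lie in a single stretch and are not separate elements. Searched on both strands, CACGTG was present in 7.26% of all 35116 windows of this length in the table, GAANNTTC in 6.77% and TTCNNGAA in 7.74%. Elsewhere in the family, TTCNNGAA was found in CCT4, 39 bases after the start, GAANNTTC in the second CCT2 window, and the ETS-type letters CCGGAAG (in 10.3% of all windows) in the first CCT2 window. Counted by gene, GAANNTTC, TTCNNGAA and CACGTG were each in 2 of 8 genes, and CCGGAAG in 1. Also searched were a GGAA repeat, 2 E2F-type patterns and an NRF1-type pattern, and none was found in any of the 8 genes. These were in 3.67%, 0.515%, 0.652% and 1.24% of all windows, so their absence from 8 genes is a description only. Some genes have several windows, so counts by gene and shares by window are not directly comparable. The matches describe letters only, and binding was not measured.

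RNA of the chaperonin genes fell after doxycycline, stayed low to 72 h and had partly returned at 96 h. By the median over the 9 genes the fall came mainly between 18 h and 36 h, with a change of -0.68. CCT4 and CCT8 fell more from 36 h to 72 h (-0.40 and -0.46) than from 18 h to 36 h (-0.32 and -0.37). For HSPD1 the later and the earlier step were of similar size (-0.29 and -0.34). Each of the 9 genes was lower at the 36 h, 53 h, 72 h and 96 h times than at 0 h by limma with Benjamini-Hochberg adjustment over 7304 genes (adjusted p under 0.05). The decreases at 36 h ran from 1.26-fold for CCT4 to 2.99-fold for HSPE1. The background was high: the share of all genes tested that was called lower was 32.1% (36 h), 34.5% (53 h), 39.2% (72 h) and 35.7% (96 h). Among the 777 genes with a mean log2 value of at least 11, the range in which the chaperonin genes lie, these shares were 31.4%, 35.3%, 42.5% and 39.8%. The median log2 change over the 9 genes was -0.89 (36 h), -1.0025 (53 h), -0.99 (72 h) and -0.58 (96 h), beside 0.02, -0.01, -0.11 and -0.10 over all genes tested. CCT2, CCT8, HSPD1 and HSPE1 could be tested only on probe sets of the _s_at kind, which can match more than 1 transcript; cross-reading was not tested. Without such probe sets 5 genes remained, and all 5 were lower at each of the 4 times. The share of all genes called lower under that setting is not given, so this count is a description only. In a fit of all probe sets with 1 symbol, the 12 that passed the filter were lower at each of these times, beside 31.8%, 33.2%, 36.9% and 34.2% of all such probe sets; the CCT8 probe set that did not pass was not tested.

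**Figure D1:**
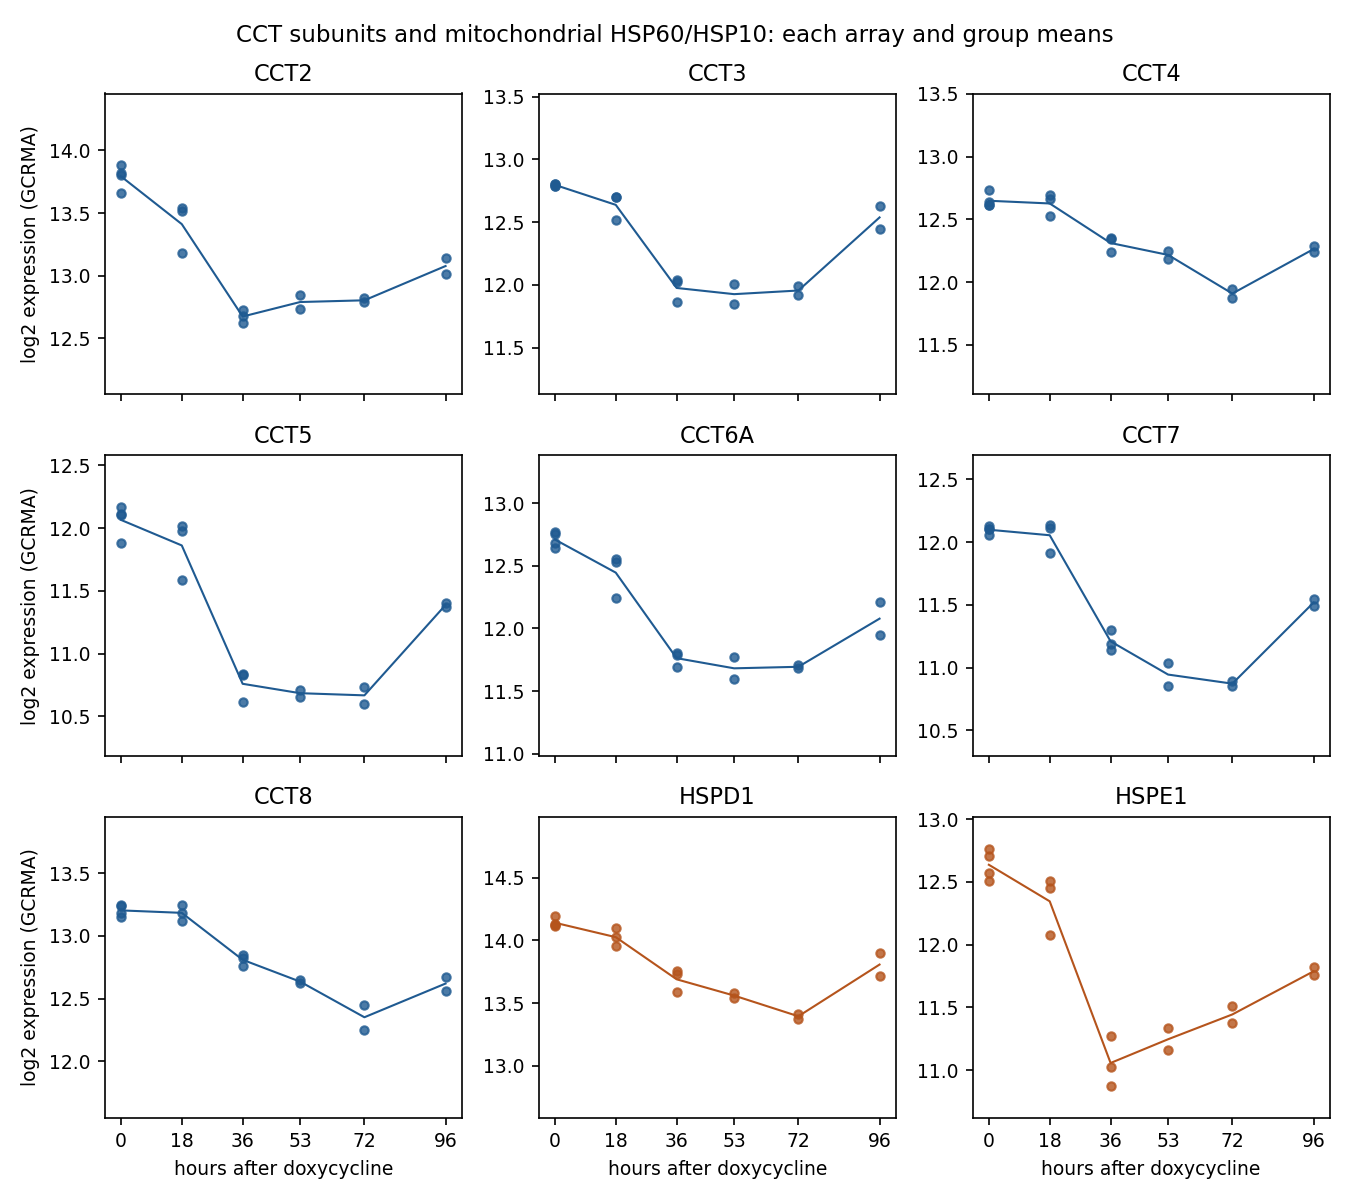
Log2 expression (GCRMA, y axis) of each of the 9 chaperonin genes against hours after doxycycline (x axis); points are single arrays, lines join group means, the y axes cover equal spans from different origins, CCT subunits are blue and HSPD1 and HSPE1 are orange. In every panel all arrays of the 4 times from 36 h on lie below all 4 arrays at 0 h, as did 33.1% (36 h), 39.2% (53 h), 44.9% (72 h) and 40.3% (96 h) of all genes tested.

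HSPE1, the HSP10 lid, showed the widest fall of the family. Its log2 values were 12.51, 12.71, 12.76 and 12.57 at 0 h, 12.08, 12.51 and 12.45 at 18 h, and 11.27, 10.87 and 11.02 at 36 h. They then read 11.34 and 11.16 at 53 h, 11.51 and 11.37 at 72 h, and 11.82 and 11.76 at 96 h. The lowest group was thus 36 h, and the arrays from 36 h on do not overlap those at 0 h or 18 h. Against 0 h the log2 change was -1.58 ± 0.11 (SE) at 36 h (limma adjusted p = 7.34e-08), -1.19 ± 0.13 at 72 h (2.13e-06) and -0.85 ± 0.13 at 96 h (8.32e-05).

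HSPD1, the HSP60 ring itself, moved less on its brighter probe set. The log2 values of 200807_s_at were 14.20, 14.12, 14.13 and 14.12 at 0 h, 13.95, 14.02 and 14.10 at 18 h, and 13.59, 13.75 and 13.73 at 36 h. Later arrays read 13.54 and 13.58 at 53 h, 13.42 and 13.37 at 72 h, and 13.90 and 13.72 at 96 h. Every array from 36 h on was below every array at 0 h, with the lowest pair at 72 h. The log2 change was -0.45 ± 0.05 (SE) at 36 h (limma adjusted p = 7.58e-06), -0.75 ± 0.06 at 72 h (1.53e-07) and -0.33 ± 0.06 at 96 h (0.000404). The second probe set, 200806_s_at, gave a wider fall of -0.90 ± 0.125 at 36 h, -0.89 ± 0.14 at 72 h and -0.54 ± 0.14 at 96 h, so the size of the HSPD1 change depends on the probe set while its direction does not.

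Within each array, log2 HSPE1 less log2 HSPD1 shows how far the readings of the 2 partners moved apart. Its absolute size has no meaning between probe sets, and the size of its change also depends on the HSPD1 probe set. With 200807_s_at the 0 h arrays gave -1.69, -1.41, -1.36 and -1.55 and the 36 h arrays -2.31, -2.88 and -2.71, a change of -1.13. With 200806_s_at the 0 h arrays gave -0.56, -0.29, -0.33 and -0.67 and the 36 h arrays -0.73, -1.43 and -1.27, a change of -0.68. The 36 h arrays lay below all 0 h arrays with either probe set, although replicate 1 came close with the second. An exact two-sided permutation test gave p = 0.0286 for each, the smallest that 35 splits allow, and 0.133 after adjustment over the 10 such tests. With arrays this few, no adjusted value under 0.0667 could be reached over these tests, so the adjustment says nothing for or against a difference. Later differences were smaller: -0.81, -0.45 and -0.52 at 53 h, 72 h and 96 h with 200807_s_at, each at the smallest p that 15 splits allow (exact permutation p = 0.0667, adjusted 0.133), and -0.38, -0.30 and -0.31 with 200806_s_at (exact permutation p = 0.267, 0.133 and 0.133; adjusted 0.297, 0.19 and 0.19). At 18 h the 2 probe sets gave -0.18 and -0.003.

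**Figure D2:**
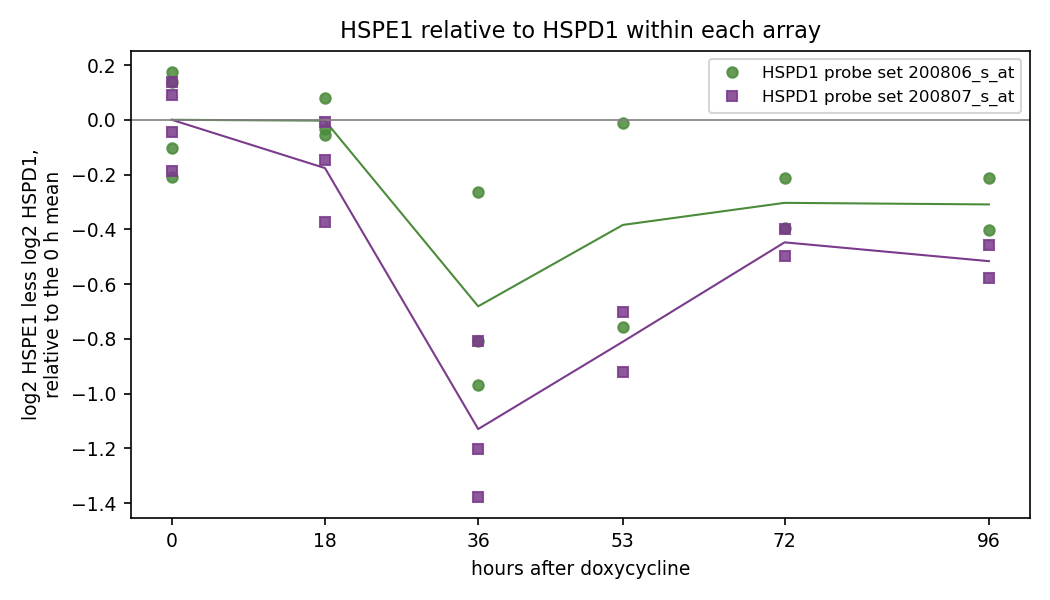
Log2 HSPE1 less log2 HSPD1 within each array, relative to its 0 h mean (y axis), against hours after doxycycline (x axis), for the 2 HSPD1 probe sets (green circles 200806_s_at, purple squares 200807_s_at; points are arrays, lines join group means). The 36 h means lie at -0.68 and -1.13, and arrays of the 200806_s_at series at 53 h are the most spread.

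Among the CCT subunits, CCT5 (epsilon), CCT2 (beta) and CCT7 (eta) had the largest changes at their lowest time. CCT5 read 11.88, 12.11, 12.17 and 12.10 at 0 h, 11.59, 12.02 and 11.98 at 18 h, and 10.61, 10.83 and 10.84 at 36 h. It stayed at 10.65 and 10.71 at 53 h and 10.74 and 10.60 at 72 h before reading 11.40 and 11.37 at 96 h. The 7 arrays from 36 h to 72 h thus form a floor 2.47-fold to 2.64-fold below the start by group mean, and the 96 h arrays sit between floor and start. The CCT5 change was -1.31 ± 0.10 (SE) at 36 h (limma adjusted p = 1.64e-07), -1.40 ± 0.12 at 72 h (1.73e-07) and -0.68 ± 0.12 at 96 h (0.000237).

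CCT2 read 13.66, 13.89, 13.80 and 13.82 at 0 h, 13.18, 13.54 and 13.52 at 18 h, and 12.72, 12.62 and 12.68 at 36 h. The later pairs were 12.74 and 12.84 at 53 h, 12.79 and 12.82 at 72 h, and 13.14 and 13.01 at 96 h. It was lowest at 36 h, like HSPE1, and its 18 h arrays were already below all 4 arrays at 0 h. Its change was -1.12 ± 0.08 (SE) at 36 h (limma adjusted p = 7.34e-08) and -0.72 ± 0.09 at 96 h (1.85e-05). The second CCT2 probe set, 201946_s_at, had log2 changes of -1.498 (36 h) and -0.780 (96 h).

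CCT7 took a slower course. Its values of 12.05, 12.11, 12.10 and 12.13 at 0 h were matched at 18 h by 11.92, 12.11 and 12.14, then gave way to 11.14, 11.19 and 11.30 at 36 h. They went on to 10.85 and 11.04 at 53 h and 10.85 and 10.89 at 72 h, with 11.49 and 11.55 at 96 h. The groups at 0 h and 18 h overlap, and those from 36 h on lie apart from both. The change was -0.89 ± 0.07 (SE) at 36 h (limma adjusted p = 1.03e-07) and -1.23 ± 0.08 at 72 h (8.73e-09).

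CCT4 (delta) and CCT8 (theta) changed least at 36 h and reached their lowest values at 72 h. CCT4 read 12.61, 12.63, 12.62 and 12.73 at 0 h, 12.52, 12.66 and 12.70 at 18 h, 12.24, 12.35 and 12.34 at 36 h, 12.18 and 12.25 at 53 h, 11.88 and 11.94 at 72 h, and 12.24 and 12.29 at 96 h. Its step from 36 h to 72 h was -0.40 ± 0.07 (SE), beside -0.34 ± 0.05 from 0 h to 36 h. CCT8 went from 13.15 to 13.25 at 0 h to 12.76 to 12.84 at 36 h, 12.45 and 12.25 at 72 h, and 12.68 and 12.56 at 96 h. Its change was -0.39 ± 0.06 at 36 h and -0.85 ± 0.06 at 72 h (limma adjusted p = 3.11e-05 and 5.08e-08).

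CCT3 (gamma) and CCT6A (zeta) fell early and then held a floor. CCT3 lay between 12.79 and 12.80 on the 4 arrays at 0 h and between 11.85 and 12.04 on the 7 arrays from 36 h to 72 h, a change of -0.82 ± 0.07 (SE) at 36 h. CCT6A lay between 12.64 and 12.77 at 0 h and between 11.60 and 11.80 from 36 h to 72 h, a change of -0.95 ± 0.08 at 36 h (limma adjusted p = 2.05e-07 for CCT3 and 4.09e-07 for CCT6A). By 96 h CCT3 was back at 12.63 and 12.45, a change of -0.26 ± 0.08 (limma adjusted p = 0.00924) that was -0.17 with adjusted p = 0.141 when replicate 2 at 96 h was left out. CCT6A at 96 h read 12.21 and 11.95. Its second probe set, 201326_at, fell by 0.85 at 36 h and 0.51 at 96 h on the log2 scale.

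**Figure D3:**
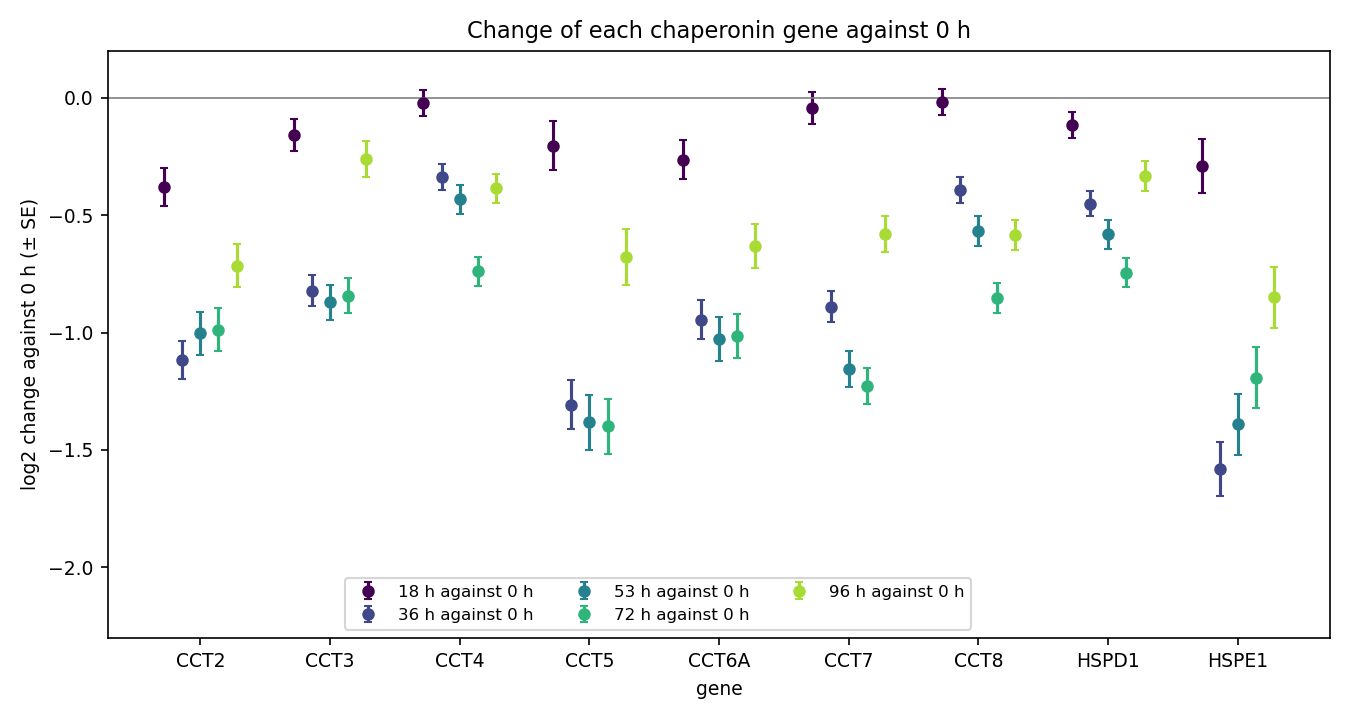
Log2 change against 0 h (y axis) of each chaperonin gene (x axis) at 18 h, 36 h, 53 h, 72 h and 96 h; points are limma estimates and bars are ± 1 SE, with 4 arrays at 0 h and 2 or 3 at each other time. The 18 h estimates run from -0.02 to -0.38, the 36 h to 72 h estimates reach -1.58 for HSPE1 and the 96 h estimates lie between the 72 h estimates and 0.

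At 18 h, when FLI1 already stood at a log2 change of -3.20, only CCT2 (-0.38 ± 0.08, SE; limma adjusted p = 0.00372) and CCT6A (-0.26 ± 0.08; 0.0293) of the 9 genes passed the test, and 14.7% of all genes tested were called lower. The CCT6A call was lost when replicate numbers entered the fit as a block (-0.24, adjusted p = 0.0771). The other estimates were -0.29 for HSPE1 (adjusted p = 0.0712), -0.20 for CCT5, -0.16 for CCT3, -0.12 for HSPD1, -0.04 for CCT7, and -0.02 for both CCT4 and CCT8. All 9 genes had their lowest 18 h value on replicate 1, and 6 of 9 also had their lowest 0 h value on replicate 1. Set against the 0 h array of the same number, 6 of 9 genes were lower at 18 h in all 3 pairs: CCT2, CCT3, CCT5, CCT6A, HSPD1 and HSPE1. The median change over the 9 genes was -0.28 (replicate 1), -0.09 (replicate 2) and -0.11 (replicate 3). No share over all genes tested is given for these counts by replicate, so they are a description only. The labels do not state that arrays of the same number belong together. Without the 18 h array of replicate 1 the median over the 9 genes was -0.08 in place of -0.16, and CCT2 alone kept its call. The arrays at 18 h lay wholly below those at 0 h for CCT2, CCT3, CCT6A and HSPD1, 4 of 9 genes beside 20.4% of all genes tested.

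Between 18 h and 36 h all 9 genes fell, against 22.9% of all genes tested, and none had overlapping arrays, beside 30.0% of all genes tested that lay wholly lower. The median change over the 9 was -0.68, beside 0.006 over all genes. HSPE1 fell by 1.29 ± 0.12 (SE), CCT5 by 1.10 ± 0.11 and CCT7 by 0.85 ± 0.07 on the log2 scale (limma adjusted p = 3.86e-06, 6.03e-06 and 1.5e-06). CCT4 and HSPD1 had the smallest steps, at -0.32 ± 0.06 and -0.34 ± 0.06 (adjusted p = 0.000734 and 0.000466). FLI1 itself fell by a further 0.47 in this interval. The ACTB 3-prime less 5-prime signal was at its highest at 36 h; its part was not tested.

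From 36 h to 72 h the genes went different ways, in a comparison added after the courses had been seen. CCT4, CCT7, CCT8 and HSPD1 fell further, 4 of 9 genes beside 29.0% of all genes tested, and HSPE1 rose by 0.39 ± 0.14 (SE, limma adjusted p = 0.0338), 1 of 9 beside 15.7%. The further falls were 0.40 for CCT4, 0.34 for CCT7, 0.46 for CCT8 and 0.29 for HSPD1 on the log2 scale (limma adjusted p = 0.00025, 0.00398, 0.00011 and 0.00252). CCT2, CCT3, CCT5 and CCT6A had estimates of 0.13, -0.02, -0.09 and -0.07 and did not pass. Probe sets disagreed here: 200806_s_at gave 0.009 for HSPD1 (adjusted p = 0.969), and 201946_s_at gave 0.60 for CCT2 (adjusted p = 0.0058). The HSPE1 call was lost without either 72 h array, and without replicate 2 or replicate 3 at 36 h. The median of all genes also moved, by -0.12, and with the arrays centred on the genes tested the CCT7 call was lost as well (-0.23). FLI1 rose by 0.59 ± 0.17 (SE, limma adjusted p = 0.0138) in this interval and at 72 h was still at -3.08 against 0 h.

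At 96 h the genes had turned back toward their start. Against 72 h, 7 of 9 rose, beside 17.1% of all genes tested: CCT5 by 0.72 ± 0.14 (SE), CCT7 by 0.65 ± 0.09, CCT3 by 0.58 ± 0.09, HSPD1 by 0.41 ± 0.07, CCT6A by 0.38 ± 0.11, CCT4 by 0.35 ± 0.07 and CCT8 by 0.27 ± 0.07 (limma adjusted p from 0.000119 for CCT7 to 0.0187 for CCT6A). CCT2 (0.27, adjusted p = 0.0729) and HSPE1 (0.34, adjusted p = 0.108) did not pass. On second probe sets, HSPD1 rose by 0.35 (200806_s_at, limma adjusted p = 0.142) and CCT6A by 0.31 (201326_at, 0.155), and neither passed. CCT2 on 201946_s_at gave 0.12 (limma adjusted p = 0.659). For all 9 genes both 96 h arrays were above both 72 h arrays, as they were for 36.3% of all genes tested. Of the fall at 72 h, CCT3 had regained 69.2% on the log2 scale, HSPD1 55.3%, CCT7 52.6%, CCT5 51.5% and CCT4 47.9%, while CCT6A had regained 37.8%, CCT8 31.6%, HSPE1 28.8% and CCT2 27.7%. These shares hold for the brighter probe sets and depend on that choice. They also take 72 h as the base, which was not the lowest time of every gene. HSPE1 and CCT2 were lowest at 36 h, at -1.58 and -1.12 against 0 h, beside -0.85 and -0.72 at 96 h. CCT3 and CCT6A were lowest at 53 h. For these genes the shares are not counted from the lowest mean, so the order of the shares depends on the base. On second probe sets, HSPD1 rose by 0.35 after a change of -0.89 at 72 h, and CCT2 by 0.12 after -0.90. FLI1 stayed down: its change was -3.35 at 96 h, and from 72 h to 96 h it was -0.27 (limma adjusted p = 0.322). With 2 arrays at each time, the CCT6A call was lost without replicate 1 or replicate 2 at 72 h or replicate 1 at 96 h, and the CCT8 call without 72 h replicate 2 or 96 h replicate 1.

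The chaperonin genes correlated with each other over the time course. Across the 16 arrays, which share their time groups, the 21 pairs of CCT subunits had a Pearson r between 0.781 (CCT3 with CCT8) and 0.977 (CCT2 with CCT6A), with a median of 0.933. HSPE1 was nearest to CCT2 (0.975) and farthest from CCT4 (0.758). HSPD1 was nearest to CCT7 (0.963), and its r with HSPE1 was 0.842. Such values are a description, since 84.0% of all genes tested changed over the time course in limma's F test, as did all 9 members.

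Some other genes correlated closely with them. Closest to the mean of the CCT subunits over the 16 arrays were FKBP4 (r = 0.994), a co-chaperone of HSP90, MCM7 (0.991), a subunit of the replicative helicase, EMG1 (0.991), a methyltransferase of ribosome assembly, C1QBP (0.990), a mitochondrial matrix protein, and ATIC (0.990), an enzyme of purine synthesis. Closest to HSPD1 were ATIC (0.985), RFC4 (0.984), part of the replication clamp loader, AURKB (0.983), a mitotic kinase, TMEM97 (0.983), a membrane protein of sterol handling, and NUP155 (0.983), a nuclear pore protein. At 72 h the log2 changes of these genes ran from -1.49 for ATIC to -4.12 for AURKB.

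Prefoldin hands clients to CCT, and the tubulin cofactors act on tubulin; the genes listed here changed in both directions. Of 17 listed prefoldin subunits and CCT cofactors, 14 were tested; 5 were lower and 1 was higher at 36 h, and 9 were lower and 2 higher at 72 h. Over all genes tested the shares were 32.1% lower and 33.2% higher (36 h), and 39.2% and 29.3% (72 h), so 5 of 14 lower at 36 h was near the background. The median change of the 14 was -0.14 at 36 h and -0.35 at 72 h, and the 6 calls at 36 h became 13 with array weights. The prefoldin subunits PFDN2 and VBP1 fell by 0.91 ± 0.09 and 0.77 ± 0.07 (SE, log2 scale) at 36 h. Of the other prefoldin subunits, PFDN5 rose by 0.51 ± 0.10 at 36 h, PFDN1 fell by 0.46 ± 0.11 and PFDN4 did not pass. TBCB, a tubulin cofactor, rose by 0.54 ± 0.10 at 72 h and 0.79 ± 0.10 at 96 h. The tubulin cofactors TBCA, TBCD and TBCE instead fell by 0.44 ± 0.07, 1.26 ± 0.13 and 0.92 ± 0.13 at 72 h. TBCC did not pass then (-0.23, limma adjusted p = 0.12). These other prefoldin subunits and cofactors were singled out after their values were seen. URI1, a prefoldin-like protein, was -0.47 ± 0.08 at 96 h.

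Among known CCT clients, 20 of 22 listed genes were tested; 13 were lower and 2 higher at 36 h, with a median of -0.57, and 6 were lower and 2 higher at 96 h, with a median of -0.15. The background was 32.1% lower and 33.2% higher (36 h), and 35.7% and 25.1% (96 h), so 6 of 20 lower at 96 h was no more than the background. The 8 calls at 96 h became 15 with the arrays centred on their median. TUBG1, gamma-tubulin, fell by 2.13 ± 0.10 (SE, log2 scale) at 36 h and was 1.33 ± 0.13 above its 72 h level at 96 h. TUBB4B, a beta-tubulin, fell by 1.31 ± 0.08 at 36 h, and PPP2R2A, a regulatory subunit of the PP2A phosphatase, by 0.89 ± 0.06. CDC20, an activator of the anaphase-promoting complex, fell by 1.41 ± 0.19 at 36 h and 4.11 ± 0.21 at 72 h, the lowest of the clients.

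In the cytosolic HSP70 and HSP90 system, 24 of 30 listed genes were tested; 19 were lower and 1 higher at 36 h, and 10 were lower and 4 higher at 96 h, against a background of 32.1% lower and 33.2% higher (36 h) and of 35.7% and 25.1% (96 h). FKBP4 fell by 1.64 ± 0.13 (SE, log2 scale) at 36 h, HSPA14, an HSP70 of the ribosome-associated complex, by 1.63 ± 0.09, and STIP1, which bridges HSP70 and HSP90, by 1.46 ± 0.11. HSPA4, a nucleotide exchange factor, and PPID, an HSP90-bound cyclophilin, were -0.76 ± 0.07 and -1.09 ± 0.13 at 96 h. The small heat shock protein CRYAB, singled out after its values were seen, went the other way, rising by 6.44 ± 0.885 at 72 h.

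Most neighbours of HSP60 in mitochondria were still lower at 96 h. Of 20 listed mitochondrial chaperones and proteases, 17 were tested; 11 were lower and 2 higher at 36 h, 14 were lower and none higher at 72 h, where the median was -0.83, and 13 were lower and 1 higher at 96 h, where it was -0.55. Lower calls took 32.1% (36 h), 39.2% (72 h) and 35.7% (96 h) of all genes tested, and higher calls 33.2%, 29.3% and 25.1%. GRPEL1, the exchange factor of mitochondrial HSP70, fell by 1.80 ± 0.09 (SE, log2 scale) at 36 h, and TRAP1, the mitochondrial HSP90, fell by 1.96 ± 0.11 at 72 h. The prohibitin PHB1 fell by 1.50 ± 0.11, the RNA-binding protein LRPPRC by 0.88 ± 0.07 and STOML2 by 0.83 ± 0.09 at 72 h.

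Of 18 listed genes of mitochondrial protein import, 16 were tested; 12 (36 h), 15 (72 h) and 13 (96 h) were lower, and none was higher at these times, where 32.1%, 39.2% and 35.7% of all genes tested were lower and 33.2%, 29.3% and 25.1% higher. The median was -0.74, -0.95 and -0.93, beside -0.89, -0.99 and -0.58 for the chaperonin genes; the difference between the lists was not tested. TIMM8A, an intermembrane-space chaperone, was -2.14 ± 0.21 (SE, log2 scale) at 36 h and -1.94 ± 0.235 at 96 h. TOMM40, the outer-membrane channel, fell by 2.01 ± 0.14 at 36 h, TIMM13 by 1.11 ± 0.08 and PAM16 by 1.35 ± 0.15, while the receptor TOMM20 fell by a further 0.44 ± 0.135 between 72 h and 96 h (limma adjusted p = 0.0267). These lists were drawn up with earlier results of these data known.

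Finally, 3 of 4 chaperonin-like genes, which resemble CCT subunits in sequence, were tested. MKKS, part of the chaperonin-like complex of Bardet-Biedl syndrome, fell by 0.89 ± 0.12 (SE, log2 scale) at 36 h and stayed lower at 96 h (-0.60 ± 0.14). BBS10, of the same complex, rose by 0.43 ± 0.10 at 36 h and was at -0.01 at 96 h. CCT6B, the testis form of the zeta subunit, was 0.28 at 36 h (limma adjusted p = 0.191) and 0.94 higher at 53 h (adjusted p = 0.00105). Its later changes of 0.05 (72 h) and -0.07 (96 h) did not pass (limma adjusted p = 0.842 and 0.776).

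**Figure D4:**
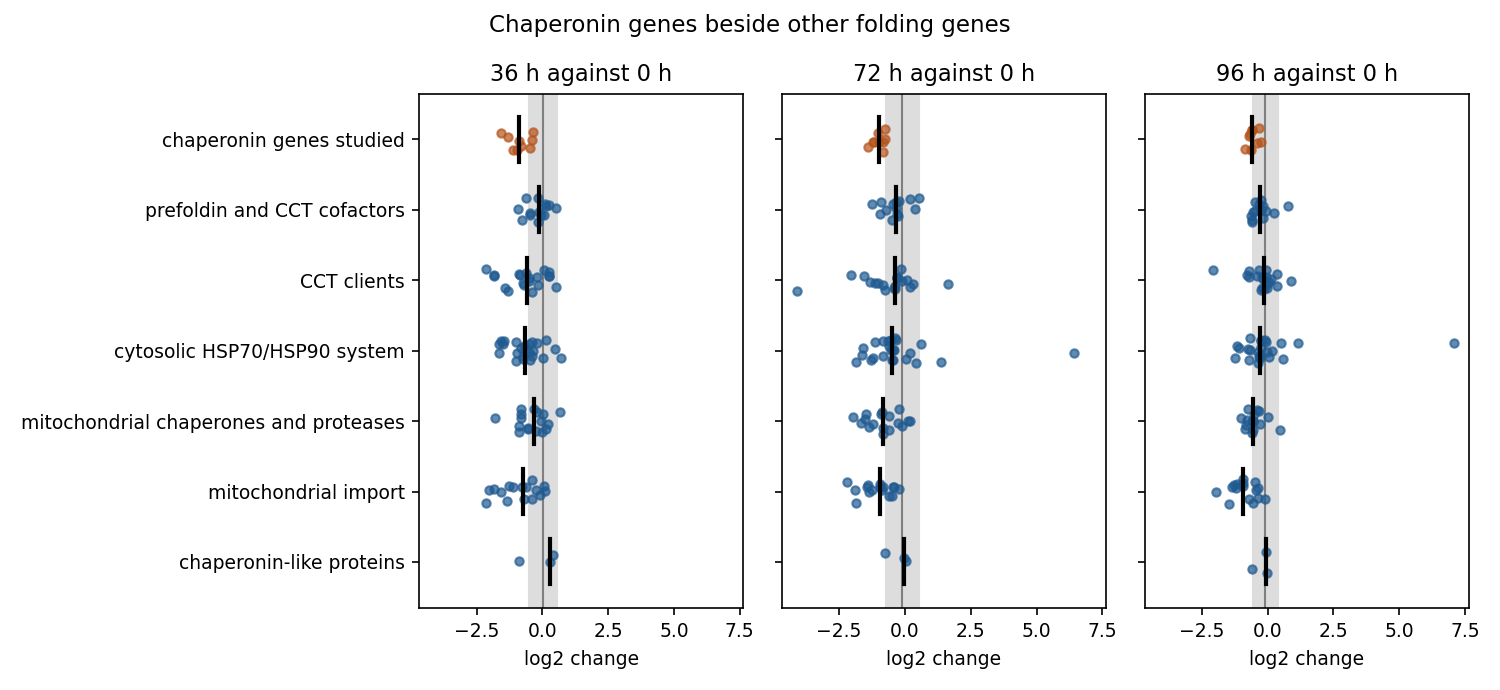
Log2 change against 0 h (x axis) at 36 h, 72 h and 96 h for the 9 chaperonin genes (orange) and the 6 lists of related genes (blue, y axis); each point is a gene, black bars are list medians, the grey band runs from the lower to the upper quartile of all 7304 genes and the thin line is their median. The chaperonin points all lie left of 0 at each time, with medians of -0.89, -0.99 and -0.58, while every other list but mitochondrial import holds genes on both sides at 36 h by the test.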

How the data were processed

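RNA of 16 samples was hybridised to Affymetrix arrays of 22277 probe sets. The values are on a log2 scale, 1 for each probe set, and the authors deposited them after GCRMA, as the submitters' processing notes name it; the sources used here give neither its version nor its settings. GCRMA corrects background by probe sequence, normalizes arrays to a common distribution and summarises probes, which compresses differences near the bottom of the scale and can hide a shift shared by most genes. Values ran from 0.388 to 15.2 and no further normalization was applied. No read depth applies; precision is limited by how many arrays a group has.

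The platform's annotation gave 1 symbol to 19070 probe sets, several to 1043 and none to 2164. Of 11963 genes, 7304 reached a log2 value of 4 on 2 or more arrays and were tested; where a gene had several probe sets, the one with the highest mean was used. Promoter windows were RefSeq's.

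Samples were grouped by the labelled hours. One mean per time was fitted to all 16 arrays with limma 3.58.1 in R 4.3.3 (lmFit, contrasts.fit, eBayes with trend; 10 residual degrees of freedom), and p-values were adjusted by Benjamini-Hochberg over the genes tested in each of 8 comparisons (threshold 0.05). The fit was checked on simulated data. HSPE1 less HSPD1 was tested by exact permutation. The members and gene lists were chosen with earlier results of these data known. Genes named were the members, FLI1, the 5 genes most correlated with HSPD1 and with the CCT mean, and some from each list. In each list these were the 4 with the smallest adjusted p at 96 h and the 2 at 36 h. List genes singled out after their values were seen are marked so where they are named.

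Labels number the replicates. Deviations from group means correlated between same-numbered arrays at 0.214 to 0.632 in 9 pairs among 0 h, 18 h and 36 h. The range was 0.003 to 0.248 in 6 pairs among 53 h, 72 h and 96 h. With 2 arrays in a group the deviations mirror each other. The pairs of replicate 1 and of replicate 2 therefore give the same values (0.003, 0.158 and 0.248) and are not separate evidence. Replicates 2 and 3 also correlated across numbers. The 0 h array of replicate 3 had r = 0.55 with 18 h replicate 2 and 0.508 with 18 h replicate 3. The 18 h array of replicate 2 had 0.36 with 36 h replicate 3 and 0.244 with 36 h replicate 2. Pairing by number is thus not established for these replicates, and the main fit was unpaired. The replicate number as a block was an alternative, beside other centring, filters, probe set choices, variance models and leaving out each array.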

Additional observations from a re-analysis of the deposited data

Results flagged for a closer look

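At 0 h, replicate 1 stood apart for HSPD1 on 200807_s_at: its log2 value of 14.1956 lay above the other 3 arrays, which ran from 14.1158 to 14.1285. The gap took 0.8409 of the group's range, past Dixon's critical value for 4 arrays. Chance marks about 1 in 20 groups this way, and 13 probe sets were checked.

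The effect against 0 h differed between times for 9 chaperonin genes at 36 h and 18 h, for 7 at 96 h and 72 h, and for 5 at 72 h and 36 h, by limma's test of the difference itself (adjusted p under 0.05). Of the 7304 genes tested, 3272, 1988 and 3264 passed in the same order, so 5 of 9 was near the background.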

How the results depend on the processing

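Across 27 alternatives, 16 of which left out 1 array, all 9 calls for 36 h, 53 h and 72 h (against 0 h) and for the step from 18 h to 36 h held wherever the gene could be tested; 8 of 9 held at 96 h, 1 of 2 at 18 h, 5 of 7 for 96 h against 72 h and 2 of 5 for 72 h against 36 h. The cause of the changes below was not tested, except where fewer genes or arrays were available. The number called at 18 h (2) was 4 with arrays centred on their median, and 1 with no filter, without a trend, with the replicate block, and with replicates 2 and 3 averaged. Without _x_at and _s_at probe sets only 5 members remained: 1 was called at 18 h, 5 in every other comparison with 0 h, in 36 h against 18 h and in the F test, 4 in 96 h against 72 h and 2 in 72 h against 36 h. The medians of these 5 members were -0.88 (53 h), -0.84 (72 h), -0.51 (96 h) and 0.58 (96 h against 72 h). No share of all genes called lower or higher under this setting is given beside the counts, so they are a description only. Centring arrays on their median moved the medians to -0.21 (18 h), -0.998 (36 h), -1.17 (53 h), -1.15 (72 h) and -0.76 (96 h), to -0.74 at 36 h against 18 h and to -0.15 at 72 h against 36 h. Centring on the genes tested, chosen after seeing the data, gave -0.87 (72 h), 0.31 (96 h against 72 h) and 0.012 (72 h against 36 h), where CCT3 (0.084), CCT5 (0.012) and CCT6A (0.035) also changed sign. A second quantile normalization gave medians of -0.82 at 36 h and -0.61 at 36 h against 18 h; the mean of probe sets gave -0.95 at 53 h and -0.92 at 72 h. Array weights gave -0.11 (18 h), -0.77 (36 h against 18 h) and -0.16 (72 h against 36 h). Averaging replicates 2 and 3 gave -0.62 at 36 h against 18 h. The replicate block gave -0.041 at 72 h against 36 h and changed no call of a member but that of CCT6A at 18 h.

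Leaving out 1 array gave counts of 1 to 3 (18 h), 8 to 9 (96 h), 5 to 8 (96 h against 72 h), 4 to 5 (72 h against 36 h) and 9 for the others. Medians ran from -0.19 to -0.0785 (18 h), -0.94 to -0.85 (36 h), -1.05 to -0.94 (53 h), -1.02 to -0.96 (72 h) and -0.64 to -0.53 (96 h). Between times they ran from -0.78 to -0.63 (36 h against 18 h), 0.32 to 0.50 (96 h against 72 h) and -0.17 to -0.055 (72 h against 36 h). Small uncalled changes turned sign. CCT4 at 18 h was 0.020 after quantile normalization, 0.042 with array weights, 0.0061 with the replicate block and without 0 h replicate 4, and ran from -0.056 to 0.030 when 1 array was left out, with the highest value without 18 h replicate 1. CCT7 at 18 h was 0.011 with array weights and ran from -0.085 to 0.025 without 1 array, and CCT8 from -0.052 to 0.013, both highest without 18 h replicate 1. At 72 h against 36 h, CCT6A was 0.032 without _x_at and _s_at probe sets, and CCT3 ran from -0.077 to 0.013, above 0 without 36 h replicate 1, 36 h replicate 3 or 72 h replicate 2.

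Over all genes, without _x_at and _s_at probe sets, the numbers called against 0 h were 1320 in place of 2150 (18 h), 2855 in place of 4772 (36 h), 2933 in place of 4845 (53 h), 3020 in place of 5003 (72 h) and 2694 in place of 4440 (96 h). Between times they were 1910 in place of 3272 (36 h against 18 h), 1124 in place of 1988 (96 h against 72 h) and 1942 in place of 3264 (72 h against 36 h). At 18 h, array weights gave 3546, averaging replicates 2 and 3 gave 1269 and leaving out 18 h replicate 1 gave 1355; averaging gave 1896 at 36 h against 18 h. At 96 h against 72 h, 1201, 1245 and 1244 were called without 72 h replicate 1, 72 h replicate 2 and 96 h replicate 1.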
